A study of Mus musculus with 2 samples.

Results

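The genes described here are 10 interferon response genes, namely Stat2, Irf1, Irf7, Irf9, Oas1a, Oas2, Rsad2, Gbp2, Gbp3 and Ifi35. They were taken by gene symbol from the array annotation, which gave 14 probe sets for these 10 genes among 12393 genes with their own symbol. The rule uses gene names and no measured value, but the list was drawn up with earlier results of these arrays known. Haematopoietic stem cells (HSC) were sorted by flow cytometry from mouse bone marrow after 30 min in culture, without any treatment. An array was hybridised for primitive HSC and another for maturing HSC. Strain, age and the sorted surface markers were not given in the sources used here. Each array reports a cDNA library that was primed at the poly(A) tail, amplified by PCR, size fractionated and cloned in phage before its inserts were transcribed into labelled cRNA. With 1 array in each group there is no spread between replicates, no test was possible, and the values describe these 2 libraries.

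Type I interferons (alpha and beta) bind the receptor chains Ifnar1 and Ifnar2 and act through the kinases Tyk2 and Jak1. Phosphorylated Stat2 then joins another STAT protein and Irf9 in a complex that binds the interferon-stimulated response element (ISRE) of its target genes. Interferon gamma signals through Ifngr1 and Ifngr2 to a STAT dimer that binds the gamma-activated site (GAS), and Irf1 is a classical target of that route. In bone marrow, interferons are known to bring dormant HSC into cycle, and stem cells are known to keep a basal level of some interferon-induced genes.

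Because the response is defined by these promoter elements, the 250 bases upstream of the annotated transcription start are shown for the 6 genes with a match in that stretch. Sequences are from RefSeq on build GRCm38.p6, 5′ to 3′ on the strand of the gene. Capitals mark the ISRE core GAAANNGAAA, or its reverse TTTCNNTTTC, and the GAS core TTCNNNGAA, which reads the same on both strands. Gbp3 lies at chr3:142559794-142560043 and Gbp2 at chr3:142620413-142620662, both on the plus strand. Oas1a lies at chr5:120907526-120907775 and Rsad2 at chr12:26456453-26456702, both on the minus strand. Stat2 lies at chr10:128270248-128270497 and Irf1 at chr11:53769764-53770013, both on the plus strand.
Gbp2: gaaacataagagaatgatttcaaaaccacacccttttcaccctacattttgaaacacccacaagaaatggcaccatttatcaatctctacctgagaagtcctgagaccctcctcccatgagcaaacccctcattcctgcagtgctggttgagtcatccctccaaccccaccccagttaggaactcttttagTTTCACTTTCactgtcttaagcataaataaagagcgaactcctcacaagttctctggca
Gbp3: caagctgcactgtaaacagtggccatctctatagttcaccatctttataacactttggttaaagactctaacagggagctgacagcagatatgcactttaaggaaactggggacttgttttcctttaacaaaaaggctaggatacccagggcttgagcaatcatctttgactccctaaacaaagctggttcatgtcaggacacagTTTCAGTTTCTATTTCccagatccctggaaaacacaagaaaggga
Oas1a: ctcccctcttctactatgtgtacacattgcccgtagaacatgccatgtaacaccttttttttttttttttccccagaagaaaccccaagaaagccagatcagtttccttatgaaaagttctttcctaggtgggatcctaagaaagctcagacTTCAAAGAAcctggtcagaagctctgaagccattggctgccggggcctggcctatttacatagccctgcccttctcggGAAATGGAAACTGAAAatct
Rsad2: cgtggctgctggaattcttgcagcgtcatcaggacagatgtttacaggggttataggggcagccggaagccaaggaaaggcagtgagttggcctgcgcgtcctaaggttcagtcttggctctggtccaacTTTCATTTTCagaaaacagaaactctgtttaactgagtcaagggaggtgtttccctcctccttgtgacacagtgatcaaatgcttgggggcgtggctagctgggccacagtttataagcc
Stat2: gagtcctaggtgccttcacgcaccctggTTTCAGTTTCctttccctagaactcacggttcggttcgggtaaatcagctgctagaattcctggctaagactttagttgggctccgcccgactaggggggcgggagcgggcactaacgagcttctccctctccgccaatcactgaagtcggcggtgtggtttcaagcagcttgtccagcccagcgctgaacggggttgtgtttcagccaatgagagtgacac
Irf1: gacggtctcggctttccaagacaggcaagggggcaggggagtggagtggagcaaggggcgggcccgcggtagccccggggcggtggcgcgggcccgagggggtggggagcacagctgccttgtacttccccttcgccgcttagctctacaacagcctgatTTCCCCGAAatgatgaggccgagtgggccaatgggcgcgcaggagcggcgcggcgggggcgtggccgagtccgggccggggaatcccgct

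Of the 10 genes, 9 had promoter windows in the RefSeq table, 12 windows in all, each running from 250 bases before to 50 bases after the start. An ISRE core lay in the windows of Gbp2, Gbp3, Oas1a, Rsad2 and Stat2, which is 5 of 9 genes (55.6%), against 3.99% of all 27025 genes with a window. In the wider interferon pathway described further on, it was 39 of 103 genes (37.9%). The genes are on these lists as known interferon genes, so this share is not independent of the choice. Matches sat close to the start in Oas1a (-20 to -5), Gbp3 (-45 to -30) and Gbp2 (-59 to -50). In Oas1a and in Gbp3 the capitals cover 2 overlapping matches. Rsad2 had its match at -120 to -111 and Stat2 at -222 to -213. A GAS core was found in 3 of the 9 genes (33.3%), against 9.55% of all genes with a window. These were Irf1 at -90 to -82, Oas1a at -98 to -90, and Ifi35 at 7 to 15 downstream of the start, which is not printed. The windows of Irf7 and Irf9 held neither core, which says only that these letters are not in them. A match is a description of the sequence and not a measured binding site.

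**Figure D1:**
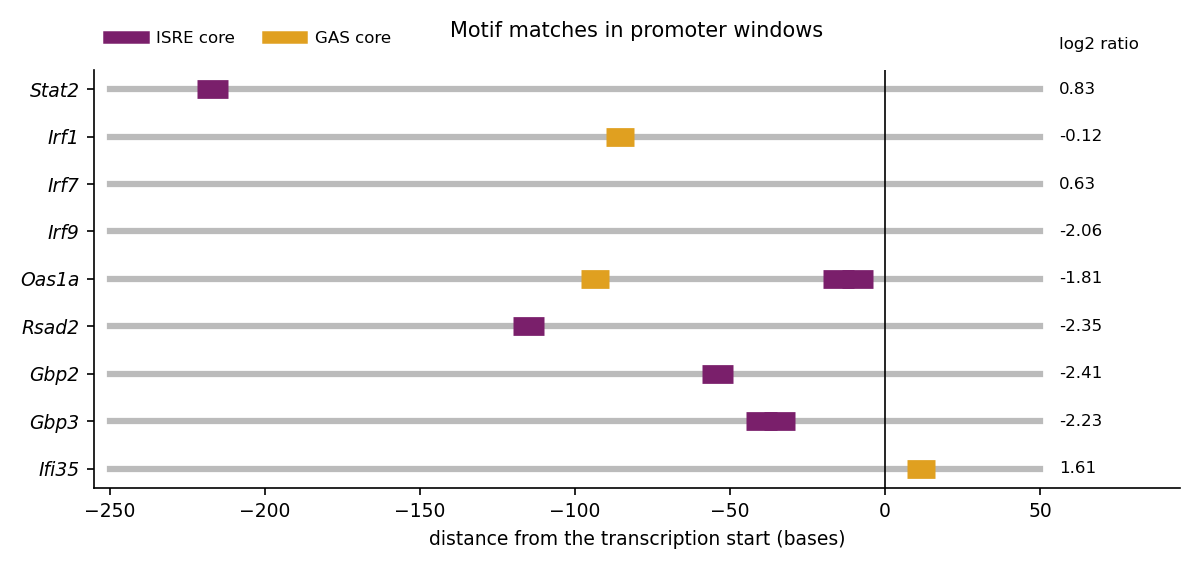
Positions of the ISRE core (purple) and the GAS core (yellow) in the promoter windows of 9 listed genes, in bases from the transcription start, with the log2 ratio of primitive over maturing intensity at the right. For Gbp3, Irf1 and Irf9, matches in any of their windows are drawn on 1 line. Of the 5 genes with an ISRE core, Gbp2, Gbp3, Oas1a and Rsad2 have ratios between -2.41 and -1.81, and Stat2 has 0.83. Of the drawn genes without an ISRE core, Irf9 has -2.06, Irf1 -0.12, Irf7 0.63 and Ifi35 1.61. Gbp2, Gbp3, Irf9 and Ifi35 have only lower bounds on their fold, because a low array value was raised to the floor described below. Whether a core goes with the ratio was not tested.

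Across the 10 genes, 4 were at least 4-fold higher in the maturing library and 0 were at least 4-fold higher in the primitive library. The 4 were the antiviral radical enzyme gene Rsad2, the guanylate-binding protein genes Gbp2 and Gbp3, and the ISRE-binding factor gene Irf9. Among all 8852 measured genes, 4.69% were at least 4-fold higher in the maturing library and 3.45% at least 4-fold higher in the primitive library. A ratio is log2 of primitive over maturing MAS5 intensity, and intensities under a floor of 441 were set to that floor, so a gene with 1 array at the floor has only a lower bound on its fold. Of the 4, Gbp2, Gbp3 and Irf9 are such bounds, and they could enter only through the array where they were high. Of all 3327 genes at the floor on 1 array, 6.67% were bounds of at least 4-fold toward the maturing library. Among the 6 listed genes over the floor in both libraries the count is 1, Rsad2, beside 3.49% of 5525 such genes. With the floor at percentile 75 the count over the listed genes was 1 as well, beside 2.53% of measured genes. With a gene's median probe set it was 2, the bounds Gbp3 and Irf9, beside 3.26%. Rsad2 then stood at -1.14 and Gbp2 at -1.82, short of 4-fold.

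At 2-fold, 5 of the 10 were higher in the maturing library, where Oas1a joined the 4, and 1, Ifi35, was higher in the primitive library. The background at 2-fold was 17.6% of measured genes toward maturing HSC and 15.6% toward primitive HSC. Stat2, Irf1, Irf7 and Oas2 stayed within 2-fold. The median log2 ratio of the 10 was -0.96, beside 0.07 over all measured genes. For the 6 genes over the floor in both libraries it was -0.10, beside 0.09, nearly the same as the median of all such genes. Nearest to the 4-fold line were Irf9 at 4.18-fold as a bound, just past it, and Oas1a at 3.51-fold, just short of it. With quantile normalization Irf9 stood at -1.97, short of 4-fold. Probe sets of 1 gene differed with an SD of 0.82 on the log2 scale over 1318 genes, which is used here as a yardstick. All probe sets were read on the same 2 arrays, so this SD holds no variation between libraries. It cannot stand in for replicates.

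**Figure D2:**
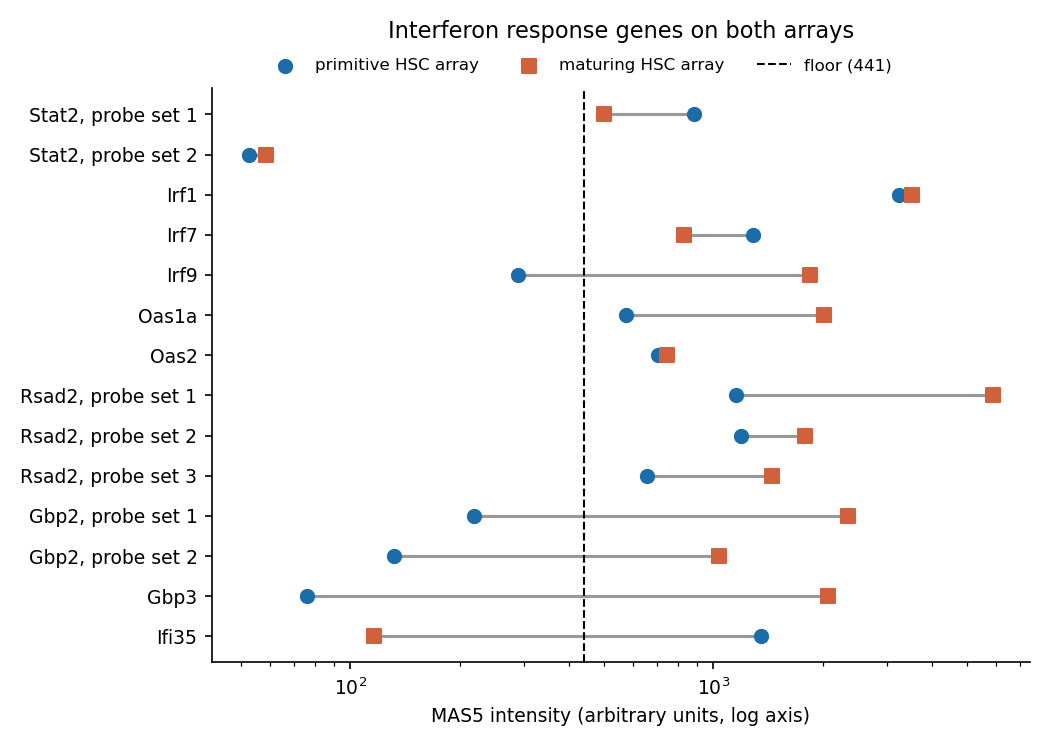
MAS5 intensity of each of the 14 probe sets on the primitive array (blue circles) and the maturing array (orange squares), on a log axis, with the floor of 441 as a dashed line. Gbp2, Gbp3 and Irf9 lie under the floor on the primitive array alone, Ifi35 on the maturing array alone, and 1 probe set of Stat2 on both.

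Among the transcription factors the components of the ISRE-binding complex differed in direction. Irf9, the DNA-binding subunit, read 291 in the primitive and 1842 in the maturing library. The primitive value was under the floor, so Irf9 was at least 4.18-fold higher in the maturing library (log2 ratio -2.06). Stat2, the subunit that carries the transactivation domain, read 885 in the primitive and 499 in the maturing library, a log2 ratio of 0.83, close to the SD between probe sets. Its other probe set read 52.7 and 58.5 and was not measured, since both values were under the floor. The direction of Stat2 therefore rests on 1 probe set, and it turned to -0.15 with scaling to the hybridisation controls.

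Irf1, the interferon gamma target and activator, read 3245 in the primitive and 3518 in the maturing library, and the 2 arrays were 1.08-fold apart. Its log2 ratio of -0.12 lay well inside the spread between probe sets. Irf7, the factor that amplifies transcription of the interferon alpha genes, read 1286 in the primitive and 832 in the maturing library. The log2 ratio of Irf7 was 0.63, also inside that spread, and it became -0.35 with scaling to the hybridisation controls. Of the 4 factors, then, 1 was past 2-fold, toward maturing HSC.

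Rsad2 and Oas1a, among the antiviral enzymes, were higher in the maturing library, and Oas2 was nearly level. Rsad2 encodes viperin, which makes a chain-terminating nucleotide. Its first probe set read 1155 in the primitive and 5871 in the maturing library, a 5.08-fold difference (log2 ratio -2.35). The second read 1192 and 1787 (log2 ratio -0.58), and the third 657 and 1451 (log2 ratio -1.14). All 3 probe sets exceeded the floor in both libraries and all were higher on the maturing array, but their log2 ratios ran from -2.35 to -0.58. The 4-fold call of Rsad2 rests on the first, which has the highest mean intensity, and the median of the 3 probe sets was -1.14.

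Oas1a and Oas2 encode oligoadenylate synthetases, which sense double-stranded RNA and activate RNase L. Oas1a read 574 in the primitive and 2014 in the maturing library, so it was 3.51-fold higher in the maturing library (log2 ratio -1.81). Oas2 read 705 and 745, a log2 ratio of -0.08 that was 0.04 after quantile normalization. Oas1a has several close copies in the mouse genome, and which of them its probe set also binds was not tested here.

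Gbp2 and Gbp3, interferon-induced GTPases that assemble on the membranes around intracellular pathogens, were both higher in the maturing library. The first Gbp2 probe set read 219 in the primitive and 2340 in the maturing library, at least 5.31-fold higher in the maturing library (log2 ratio -2.41). The second read 132 and 1038, at least 2.35-fold higher. Gbp3 read 75.8 and 2071, at least 4.70-fold higher in the maturing library (log2 ratio -2.23). All 3 probe sets were under the floor on the primitive array and above it on the maturing array. The second Gbp2 probe set is of a type that can bind several transcripts, and GBP genes are close relatives, so the signal may be shared between them.

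Ifi35, an interferon-induced leucine zipper protein, was the listed gene furthest toward primitive HSC. It read 1349 in the primitive and 117 in the maturing library. The maturing value was under the floor, so Ifi35 was at least 3.06-fold higher in the primitive library (log2 ratio 1.61). Nmi, the known binding partner of Ifi35, lay the other way, with 1203 in the primitive and 2599 in the maturing library (log2 ratio -1.11). Each of these genes has 1 measured probe set.

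**Figure D3:**
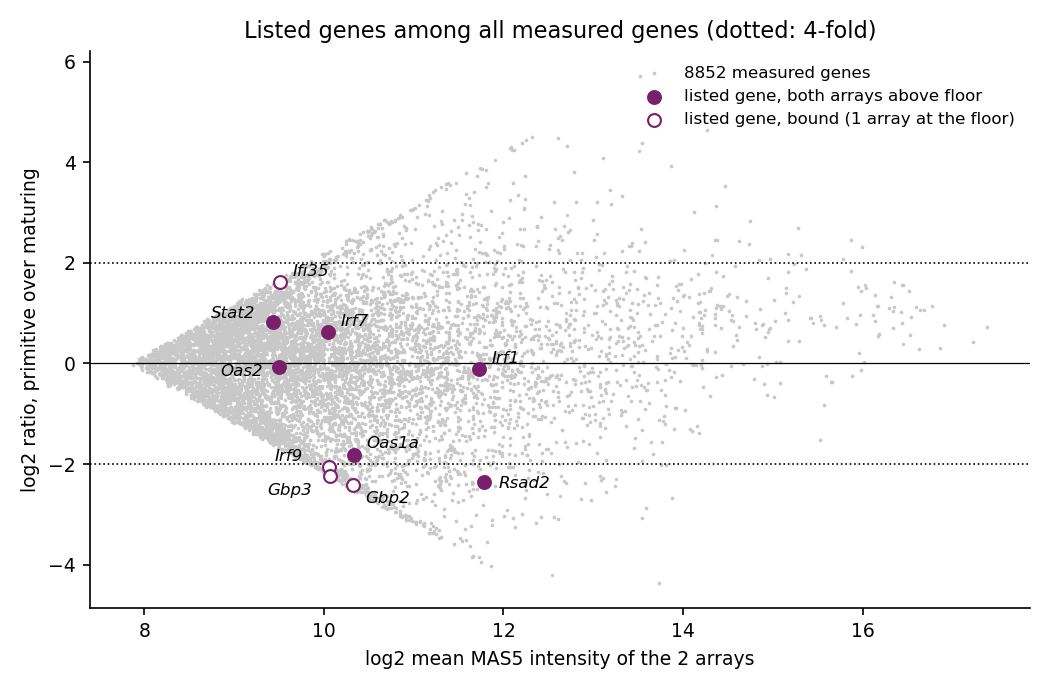
Log2 ratio of primitive over maturing intensity against log2 of the mean intensity of the 2 arrays for 8852 measured genes (grey) and the 10 listed genes (purple; open circles are bounds). Rsad2 lies at -2.35 clear of the edge that the floor makes, whereas Gbp2, Gbp3, Irf9 and Ifi35 lie on that edge.

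A wider list of interferon pathway genes, ordered by role, gives the surroundings of these 10. The 10 listed genes are not on it and are not counted in its role groups. Of 139 genes on it, 105 were found in the annotation by their own symbol and 83 were measured. Toward primitive HSC 42 were higher and toward maturing HSC 41, where 52.7% of all measured genes were higher in the primitive and 47.3% in the maturing library at any size of difference, with a median log2 ratio of 0.03 beside 0.07 for all measured genes. At least 4-fold higher in the primitive library were 3 of the 83 (3.61%, background 3.45%), and at least 4-fold higher in the maturing library were 4 (4.82%, background 4.69%). At 2-fold the counts were 14 (16.9%, background 15.6%) and 16 (19.3%, background 17.6%). The shares of the wider list were thus near those of all genes.

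Of the interferon genes themselves, 9 were on the array and 4 measured. Ifng, the interferon gamma gene of T and natural killer cells, read 2083 in the primitive and 391 in the maturing library, at least 4.72-fold higher in the primitive library. The natural killer cell marker list had 5 of 7 measured genes higher in the primitive library, beside 52.7% of all measured genes. Klrd1, Ncr1 and Gzma were at the floor on the maturing array, so they could count only toward the primitive library. For the markers over the floor in both libraries the median log2 ratio was 0.27. Nkg7 (6299 and 7933), the brightest of the list, and Gzmb (727 and 1143) were higher in the maturing library. The summed intensity of the list was 13676 in the primitive and 11030 in the maturing library. Of 6 T cell markers, 3 were measured, and their list summed to 9894 in the primitive and 2336 in the maturing library. Cd3d carried that sum with 8673 and 44.2, Cd8a (194 and 807) and Cd28 (537 and 783) were higher in the maturing library, and Cd3e, Cd3g and Cd4 were under the floor on both arrays. The part of such cells in the Ifng value was not tested. Ifnb1 read 695 and 478, Ifna11 730 and 221, and Ifna1 95.6 and 574, and the other 5 interferon alpha genes were under the floor on both arrays.

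Every receptor and receptor-bound kinase gene on the array, 8 of 8, was above the floor in both libraries, and 6 were higher in the primitive library, beside 52.7% of all measured genes (median log2 ratio 0.50, but -0.48 with scaling to the hybridisation controls). Ifnar1 read 652 in the primitive and 528 in the maturing library (log2 ratio 0.30), and Ifnar2 2576 and 1103 (log2 ratio 1.22), with its other probe set at -0.39. Ifngr1 read 3103 and 4520 (log2 ratio -0.54), and Ifngr2 1393 and 745 (log2 ratio 0.90). Jak1 (log2 ratio 0.68) and Jak2 (0.67) each had probe sets in both directions, down to -1.24 and -0.39. Tyk2, the kinase bound to Ifnar1, read 746 and 1848, 2.48-fold higher in the maturing library. Signal for both receptors was thus over the floor in both libraries, and Ifnar2 and Tyk2 were the genes of this group past 2-fold.

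No other STAT or IRF gene was past 2-fold, with 6 of 8 measured. Stat3 had a log2 ratio of -0.39 with probe sets from -1.38 to 0.20, Irf3, which is activated by nucleic acid sensors, had -0.42, and Irf5 had 0.16. Irf4, a lymphoid factor, read 858 in the primitive and 386 in the maturing library, a bound of 0.96. Irf8, a factor of monocytes and dendritic cells, read 147 and 482, a bound of -0.13.

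Among nucleic acid sensors and their adaptors, 10 of 14 were measured, with 5 higher in each direction. Their median log2 ratio was 0.14, but -0.60 with scaling to the hybridisation controls. At least 4-fold higher in the maturing library were 2 of the 10 (20%, background 4.69%). The RNA sensor gene Ifih1, which encodes Mda5, read 137 in the primitive and 2144 in the maturing library, at least 4.86-fold higher in the maturing library. Mndal, of the interferon-induced DNA-binding p200 family, read 801 and 4737 (log2 ratio -2.56, other probe set -3.39). Ikbke, a kinase that activates interferon regulatory factors, was 3.57-fold higher in the maturing library. Zbp1, a sensor of Z-form nucleic acid, went the other way with 1752 and 471, 3.72-fold higher in the primitive library.

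Relatives of Oas1a had other ratios than its -1.81. Of 6 measured genes of the OAS family on the wider list, 5 were higher in the primitive library, beside 52.7% of all measured genes. This count leaves out the listed Oas1a and Oas2, both lower in the primitive library (log2 ratios -1.81 and -0.08). The median log2 ratio of the 6 was 0.26, but -0.59 with scaling to the hybridisation controls. Oas1b read 999 and 464 (log2 ratio 1.11), Oas3 2358 and 1780 (log2 ratio 0.41) and Oas1h 607 and 494 (log2 ratio 0.30). Oasl1 was at least 2.11-fold higher in the maturing library.

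The relatives of Gbp2 and Gbp3 went both ways. Of 8 measured GTPase and Mx genes, 5 were higher in the maturing library, beside 47.3% of all measured genes. Their median log2 ratio was -0.49, or -0.05 with the floor at percentile 75, and none was past 4-fold. The immunity-related GTPase gene Igtp read 67.6 in the primitive and 1630 in the maturing library, at least 3.70-fold higher in the maturing library. Gbp6 read 61.6 and 1065, at least 2.41-fold higher in the maturing library, and Gbp7 1002 and 1870 (log2 ratio -0.90, other probe set -1.10). Ifi47, another GTPase of the immunity-related family, read 5535 and 3238 (log2 ratio 0.77). Of the GBP genes, Gbp2, Gbp3 and Gbp6 were bounds that could enter only through the maturing array, so their shared direction is set by the floor. Gbp7, the GBP gene above the floor in both libraries, was higher in the maturing library. Gbp2b and Gbp8 were under the floor on both arrays. The immunity-related GTPases were split.

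**Figure D4:**
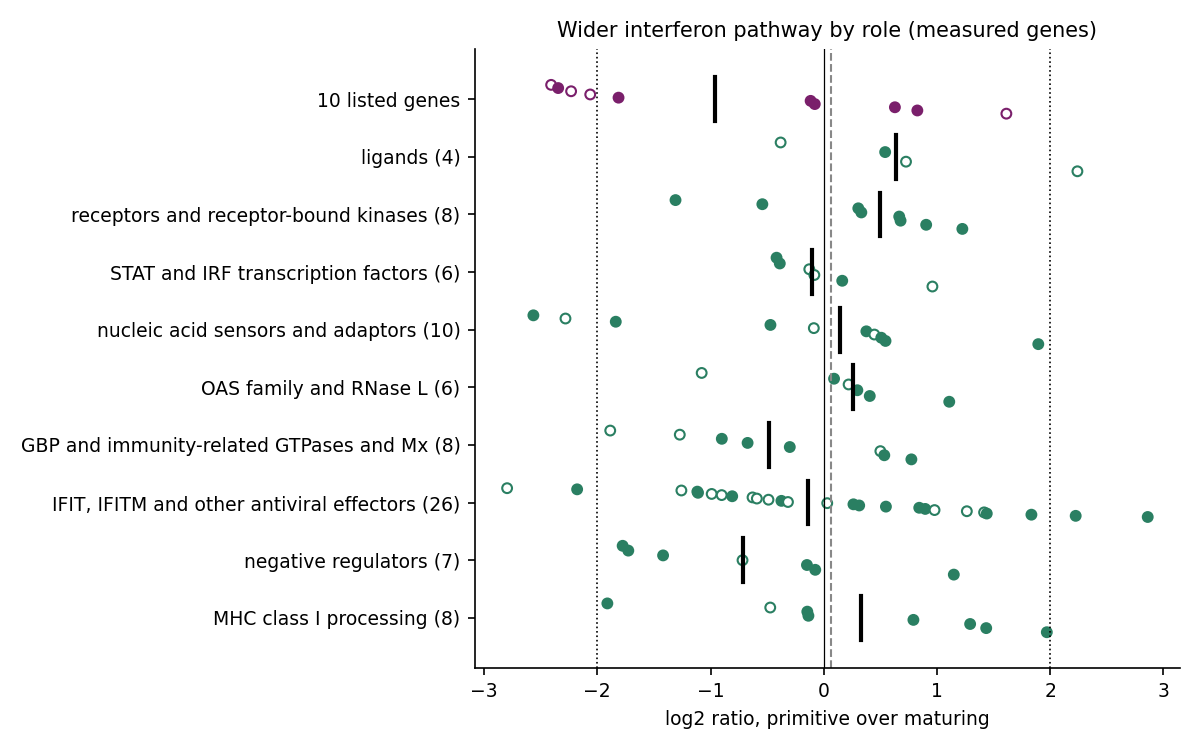
Log2 ratio of primitive over maturing intensity for the measured genes of the wider interferon pathway by role, with the 10 listed genes on top. Filled points were above the floor on both arrays, open points are bounds, black bars are medians, dotted lines mark 4-fold and the dashed grey line is the median of all measured genes (0.07); the listed genes have a median of -0.96 and the 9 groups between -0.72 and 0.63.

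Antiviral effectors went both ways, with 13 of 26 measured genes higher in each direction and a median log2 ratio of -0.14, which was 0.11 after quantile normalization. Ifi27l2a, an interferon-inducible gene, read 5238 in the primitive and 721 in the maturing library, 7.26-fold higher in the primitive library. Ifitm6 read 2860 and 612, 4.67-fold higher there, and Ifitm3, which blocks the entry of enveloped viruses, read 94558 and 34866 (log2 ratio 1.44). In the opposite direction, Parp9 read 422 and 3064, at least 6.95-fold higher in the maturing library. Trim30a read 831 and 3762 (log2 ratio -2.18), with its other probe set at 0.15.

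Of the genes for peptide processing on MHC class I, 4 of 8 measured were higher in the primitive library, with a median log2 ratio of 0.33 that was -0.22 with scaling to the hybridisation controls. The proteasome activator gene Psme1 (log2 ratio 1.97), B2m (1.43) and the immunoproteasome gene Psmb9 (1.29) were higher in the primitive library. Tapbp, the tapasin gene, had a log2 ratio of -1.91, with its other probe set at -0.0006. Negative regulators had 6 of 7 measured genes higher in the maturing library, beside 47.3% of all measured genes, with a median log2 ratio of -0.72. The phosphatase genes Ptpn2 (log2 ratio -1.78) and Ptpn11 (-1.73) and the STAT inhibitor gene Pias1 (-1.42) were among them. The probe sets of Ptpn2 ran from -1.78 to 1.05, those of Ptpn11 from -1.73 to -0.35 and those of Pias1 from -1.42 to -0.35. Usp18, an interferon-induced protease that damps the receptor, read 1043 and 471, 2.22-fold higher in the primitive library.

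Interferon response genes are also expressed by mature blood cells, so marker lists were read on the same arrays. HSC and progenitor markers were all measured (9 of 9), with a summed intensity of 24464 in the primitive and 19723 in the maturing library. Procr (11571 and 1895) carried the higher primitive sum. By gene, 5 of 9 were higher in the primitive library, beside 52.7% of all measured genes. Kit, Cd34, Meis1 and Tek were higher in the maturing library, with Meis1 and Tek as bounds past 2-fold. Macrophage and dendritic cell markers summed to 7772 and 4878, with 6 of 7 measured genes higher in the primitive library, again beside 52.7%. Itgax, C1qa and C1qc were under the floor on both arrays. B cell markers summed to 2023 and 6795, with 4 of 5 measured genes higher in the maturing library, beside 47.3% of all measured genes. Pax5 and Blnk were under the floor on both arrays. Neutrophil markers summed to 93077 and 48986, with 5 of 8 higher in the primitive library, beside 52.7% of all measured genes. S100a8, S100a9 and Camp carried most of the primitive sum. The list's genes past 4-fold went the other way, since Mpo (270.1 and 2587) was at least 5.87-fold and Csf3r (394 and 2575) at least 5.84-fold higher in the maturing library. Plasmacytoid dendritic cell markers, of which 5 of 6 were measured, summed to 3216 and 3779 and were split. Bst2 was at least 2.67-fold higher in the primitive library and Ccr9 had a bound of 0.07, while Tcf4 was 2.48-fold and Spib 2.35-fold higher in the maturing library. Erythroid markers, with 2 of 4 measured, summed to 4010 and 3114. Klf1 (1651 and 445) was higher in the primitive and Tfrc (1780 and 2526) in the maturing library. On the maturing array, where Rsad2, Gbp2, Gbp3, Irf9 and Oas1a were higher, the B cell and plasmacytoid dendritic cell sums and the myeloid genes Mpo and Csf3r were higher too, and their part in those ratios was not tested. On the primitive array, where Ifi35 was higher, the sums of the HSC, T cell, neutrophil, macrophage, natural killer and erythroid lists were higher. Each of these lists also held a measured gene or more that was higher in the maturing library. The part of these lists in the Ifi35 ratio was not tested either. In such bulk libraries fewer cells of a type and less RNA per cell cannot be told apart.

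The zero point of every ratio depends on the scaling. Bacterial and phage transcripts added as hybridisation controls had 18 probe sets, with a median log2 ratio of 0.97 toward the primitive array. Scaling to them moved the median of all measured genes from 0.07 to -0.74 and left 91 genes at least 4-fold higher in the primitive and 1231 in the maturing library, in place of 305 and 415. Under that scaling the median of the 10 genes was -1.83, Ifi35 alone stayed higher in the primitive library (log2 ratio 1.15), and Rsad2 stood at -3.32. Relative to the median of all genes, Stat2 at -0.15 and Irf7 at -0.35 were still on the primitive side. Across the settings tried, Rsad2, Gbp2, Gbp3, Irf9 and Oas1a were higher in the maturing library in each one where they were measured. All settings use the same 2 arrays, and moving the floor cannot turn the sign of a ratio. The constant sign is therefore no measure of how these ratios would repeat in other libraries.

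**Figure D5:**
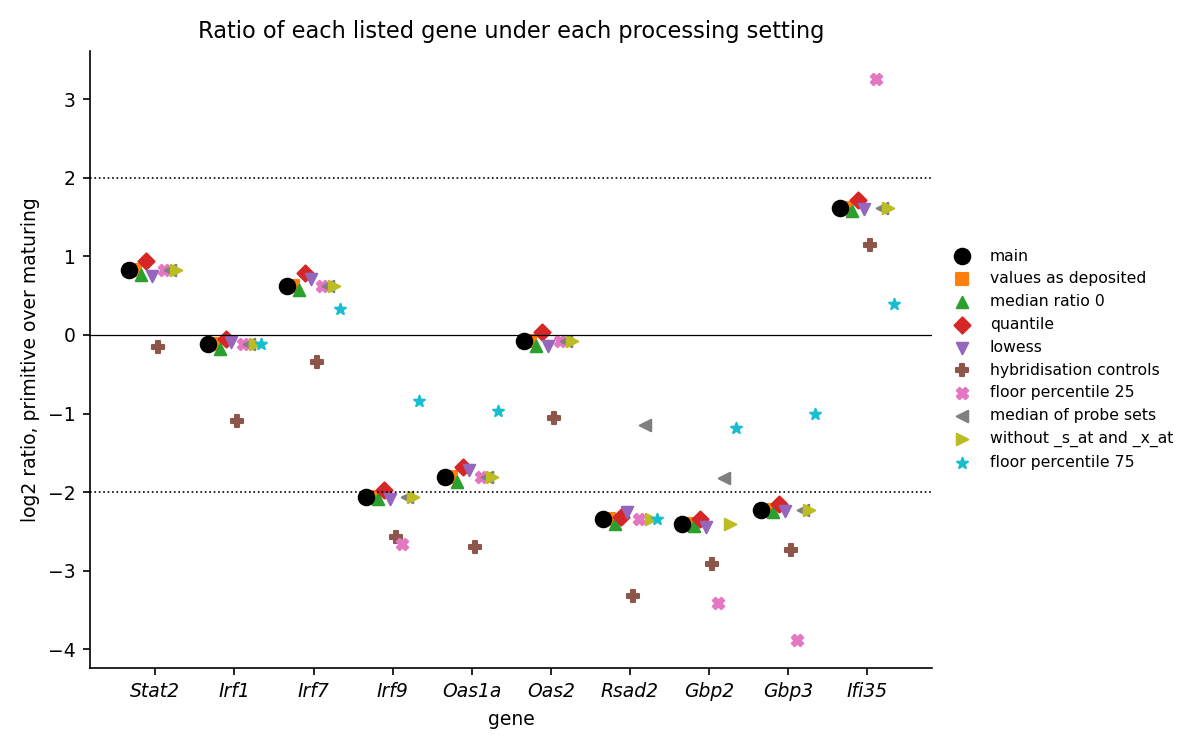
Log2 ratio of primitive over maturing intensity of the 10 listed genes under the main setting (black circles) and 9 alternatives; dotted lines mark 4-fold. Rsad2, Gbp2, Gbp3, Irf9 and Oas1a are below 0 at every point, Ifi35 is above 0 at every point, and at floor percentile 75 Stat2 and Oas2 have no point because they were not measured.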

How the data were processed

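The deposited table holds 1 MAS5 signal intensity per probe set and array on a linear scale, made by the authors per the submitters' processing notes. MAS5 scales each array, which hides any difference in total RNA between the cells, and the version, scaling target and detection calls were not given in the sources used here. The 2% trimmed means were 1000.6 (primitive) and 1000.4 (maturing), and the arrays were rescaled to a common one. Of 22690 probe sets, 64 were controls, 20380 had 1 gene symbol in the platform annotation, 691 had several and 1555 were not listed. RefSeq names were checked through Entrez identifiers for 20351 probe sets, and 0 differed. Genes were named from probe sets with 1 symbol, so some pathway genes were not analysed here. Each of 12393 genes was represented by its brightest probe set, by the mean of both arrays. The floor was percentile 50 of the non-control intensities on both arrays, and genes under it on both were not measured (8852 were measured). Calls are 4-fold or 2-fold ratios. With 1 array per group no p-value is given, and the number of arrays limits the precision.

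All 10 listed genes are named. From each role of the wider list the genes with the largest ratio or bound (up to 4), the one with the highest mean intensity, and the receptors and kinases were open to naming, while Nmi and Irf8 were chosen after their values were seen. The members and lists were chosen with earlier results of these data known. Steps were tested on simulated data, with the same change in all probe sets of a gene and noise far under the spread between real probe sets. That test covers the calculation and not how reliable the 4-fold calls are. The alternatives tried were deposited values without rescaling, centring on a median ratio of 0, lowess (fraction 0.3), quantile normalization, scaling to 18 hybridisation control probe sets, floors at percentiles 25 and 75, a gene's median probe set, and dropping probe sets named _s_at or _x_at. Python 3.11.15, numpy 2.4.6, pandas 2.3.3, statsmodels 0.14.6 and matplotlib 3.10.9 were used.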

Additional observations from a re-analysis of the deposited data

How the results depend on the processing

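The 4 genes at least 4-fold apart, all higher in the maturing library, became 1 with the floor at percentile 75, 2 with the median of probe sets, and 1 for genes over the floor in both libraries, a setting chosen after seeing the data. With the floor at percentile 25, 1 gene in place of 0 was past 4-fold toward primitive HSC, while that share of all measured genes rose from 3.45% to 6.78%. At 2-fold the 6 genes became 3 at floor percentile 75 and 2 for genes over the floor in both libraries. Those toward maturing HSC went from 5 to 3 and 2, beside 17.6%, 14.0% and 15.2% of all measured genes. Those toward primitive HSC went from 1 to 0 in both, beside 15.6%, 14.4% and 16.3%. The median of the 10 genes was -1.83 with scaling to the hybridisation controls and -0.10 for genes over the floor in both libraries. Scaling to the controls gave Stat2 -0.15, Irf1 -1.09, Irf7 -0.35, Oas1a -2.70, Oas2 -1.05 and Rsad2 -3.32, and Rsad2 had -1.14 with the median of probe sets. Bounds moved with the floor by construction. At percentile 25 Gbp2 had -3.42, Gbp3 -3.88 and Ifi35 3.26, and at percentile 75 Gbp2 had -1.19, Gbp3 -1.01, Irf9 -0.84, Oas1a -0.97 and Ifi35 0.39. Among role groups, scaling to the controls gave medians of -0.24 (ligands), -0.48 (receptors), -0.60 (sensors), -0.59 (OAS family) and -0.22 (MHC class I). The sensor median was -0.047 and -0.41 at floor percentiles 25 and 75. The effector median was 0.11 after quantile normalization, 0.23 at floor percentile 75 and 0.55 for genes over the floor in both libraries. The cause of these changes was not tested beyond the construction of each setting. A gene's ratio was taken to have moved when it changed by more than the SD between probe sets, 0.82, and a group's median when it changed by more than that or changed sign. No paired analysis was possible because each group has 1 array and the labels give no replicate numbers. At low signal over background, the floor limits what Gbp2, Gbp3, Irf9 and Ifi35 can show.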
